A study of Mus musculus with 6 samples.

Results

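The genes described here are 37 mouse genes of the DNA damage response: sensors and checkpoint kinases, homologous recombination factors, Fanconi anemia proteins, mismatch repair proteins, DNA polymerase theta, and p53 with its feedback genes. They were taken by name from a table of 43432 Ensembl genes, and all 37 were found in it. The libraries are bulk RNA-seq of splenic CD11b+ cells, which carry an integrin chain typical of neutrophils, monocytes and many macrophages. The hosts were C57BL/6J Rag1 KO mice, which lack their own mature T and B cells, and the cells were taken 8 days after the transfer of lymphocytes. In the WT iGB6 group, 3 mice received MOG-loaded wild-type B cells from the iGB culture, a system that gives B cells a germinal centre-like state, carrying the retroviral vector pMSCV with Il6 and eGFP, a green fluorescent protein. The 3 IgHMOG iGBGFP mice received MOG-loaded IgHMOG B cells that carried an empty pMSCV vector. Both groups also received unmanipulated 2D2 CD4+ T cells, whose receptor recognises myelin oligodendrocyte glycoprotein (MOG). B cell genotype and vector changed together, so their parts cannot be told apart. Each group held 1 female (replicate 1) and 2 males (replicates 2 and 3), each library came from its own mouse, and mouse ages are not stated in the labels. The vectors were in the transferred B cells, while the RNA is that of the CD11b+ cells.

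Cells that copy their DNA meet breaks, stalled forks and crosslinks. The MRE11, RAD50 and NBN complex and the kinases ATM and ATR detect such damage, CHEK1 and CHEK2 pass the signal on to the cell cycle machinery, and the p53 protein induces the inhibitor p21. Homologous recombination then copies the broken stretch from the sister chromatid, and the Fanconi proteins unhook crosslinks at forks. In bone marrow and spleen these genes are known mainly from dividing progenitors, since mature neutrophils and most monocytes do not divide and many recombination genes are transcribed in S phase. In bulk samples, more cells that express a gene and more RNA per cell cannot be told apart.

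The reads assigned to genes, as recovered from the deposited values, numbered 5196339 to 7564254 per library, and 14816 to 17013 genes were detected in each. Itgam, which encodes CD11b, was at 6451 to 12352 normalized counts (reads divided by the authors' size factor of each library), while the T cell receptor chains Cd3e and Cd3d were at 0 to 4.0 and 47.0 to 132 and Cd4, of helper T cells and some myeloid cells, at 7.87 to 34.0. At this depth the members were low. Their sum was 0.0488 to 0.0583% of a library's normalized counts in WT iGB6 and 0.0383 to 0.0509% in IgHMOG iGBGFP, and 2 of the 37, Bard1 and Polq, averaged under 10 normalized counts and were not tested.

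The recombination genes Exo1 and Rad54b and the Fanconi gene Fancd2 rose in CD11b+ cells of the WT iGB6 group, with log2 fold changes of 1.48, 1.41 and 1.56. The medians were 1.05 over the tested recombination members and 0.82 over the Fanconi members, against 0.38 over the sensors and kinases and -0.13 over the p53 genes. Of 35 tested members, 3 rose, 0 fell and 32 did not pass (limma, Benjamini-Hochberg adjusted p under 0.05 over 9923 genes). These 3 are 8.57% of the members tested, where 2.75% of all tested genes were called higher and 3.37% lower. At an unadjusted p under 0.05, 18 members were higher and 0 were lower, against 12.3% of all tested genes in the higher direction and 12.3% in the lower. In 14 members all WT iGB6 libraries lay above all IgHMOG iGBGFP libraries, and in 1, Atr, all lay below, where 12.2% and 11.4% of tested genes did so. The median log2 fold change of the 35 (WT iGB6 over IgHMOG iGBGFP) was 0.76, beside 0.02 over all tested genes, and 30 of the 35 were above 0, as were 51.6% of all tested genes. The 3 calls depend on single libraries: without WT iGB6 replicate 1, or without IgHMOG iGBGFP replicate 1, 2 or 3, 0 members passed in limma, with 10 to 17 higher and 0 lower at an unadjusted p under 0.05, and without WT iGB6 replicate 3 the number called was 9. Calls over all genes moved as well: 0.624% were called higher without WT iGB6 replicate 1, 0.665, 0.0304 and 0.122% without IgHMOG iGBGFP replicates 1, 2 and 3, and 3.49% without WT iGB6 replicate 3. Because sex is a term in the model, leaving out either female leaves the fold changes to the males. With the males alone (2 per group) 0 passed, where 0.613% of all genes were called higher, 10 were higher at an unadjusted p under 0.05, and the adjusted p of Exo1, Rad54b and Fancd2 was 0.0779, 0.152 and 0.087. Without the sex term 0 passed, where 0.0605% of all genes were called higher, 16 were higher at that p, and the fold changes of Exo1, Rad54b and Fancd2 stayed at 1.48, 1.41 and 1.56.

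**Figure D1:**
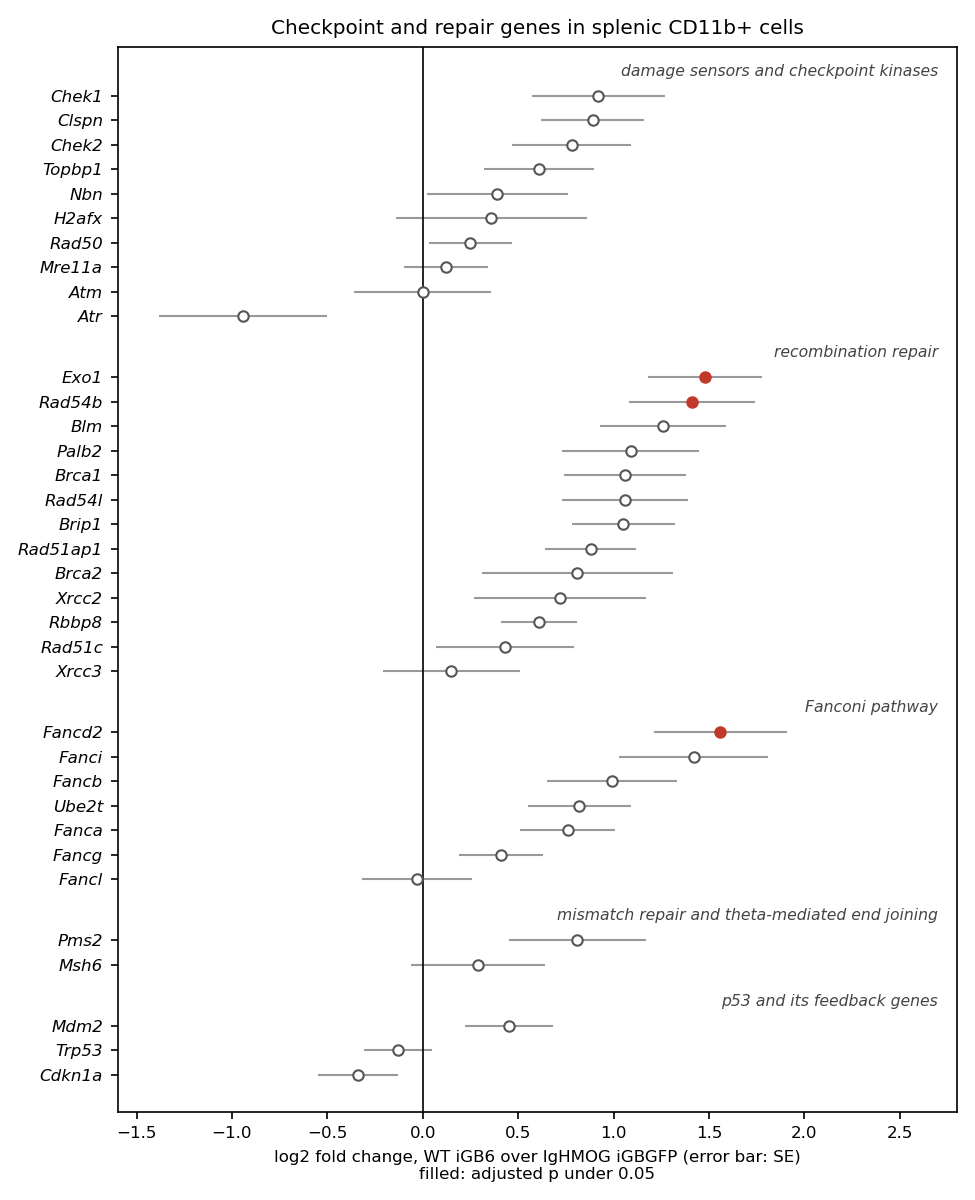
Log2 fold changes of the 35 tested members, WT iGB6 over IgHMOG iGBGFP, with the standard error as bars (3 libraries per group) and grouped by role. Filled points are Exo1, Rad54b and Fancd2, which passed an adjusted p of 0.05; all recombination repair genes tested lie above 0, and Atr lies lowest at -0.94.

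Of 10 sensors and checkpoint kinases, 0 passed, in limma as in edgeR and DESeq2, and 3 were higher and 0 lower at an unadjusted p under 0.05. Mre11a, the nuclease of the break-sensing complex, had 92.5, 100.2 and 81.0 normalized counts in WT iGB6 replicates 1, 2 and 3, against 90.0, 77.6 and 84.0 in IgHMOG iGBGFP replicates 1, 2 and 3. Its partners Rad50 (log2 fold change 0.25, SE 0.22) and Nbn (0.39, SE 0.37) also overlapped between the groups, and the adjusted p of the 3 genes was 0.512 to 0.783. Atm, the kinase that this complex recruits, averaged 15.8 ± 0.98 in WT iGB6 and 15.9 ± 2.39 in IgHMOG iGBGFP (SD, n = 3 per group). All 4 genes overlapped between the groups, and their standard errors of 0.22 to 0.37 on the log2 scale leave differences of that size undetectable. H2afx, which encodes the histone H2AX that ATM phosphorylates around breaks, ranged widely within both groups, at 55.7, 4.74 and 11.2 in WT iGB6 and 29.7, 11.2 and 4.0 in IgHMOG iGBGFP. The female was the highest library in each group for that gene.

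Atr, the kinase of single-stranded DNA and stalled forks, was the member with the lowest fold change. It had 5.93, 8.68 and 18.0 normalized counts in WT iGB6, against 21.5, 18.1 and 20.0 in IgHMOG iGBGFP. The groups did not overlap, but the highest WT iGB6 library and the lowest IgHMOG iGBGFP library nearly touched, and the gene did not pass (log2 fold change -0.94, SE 0.44, adjusted p = 0.22). Its activator Topbp1 lay in the other direction without passing (0.61, SE 0.29, adjusted p = 0.231). Clspn, the adaptor through which ATR activates CHEK1, was at 92.5, 58.4 and 47.2 in WT iGB6, against 52.2, 22.4 and 33.0 in IgHMOG iGBGFP, so the female IgHMOG iGBGFP library lay within the WT iGB6 range (0.89, SE 0.27, adjusted p = 0.0809). Chek1, the effector kinase of that branch, had 41.5, 18.9 and 19.1, against 16.4, 12.1 and 10 (0.92, SE 0.35, adjusted p = 0.141). Chek2, the effector kinase downstream of ATM, had 101, 75.8 and 45.0, against 38.9, 44.8 and 38.0 (0.78, SE 0.31, adjusted p = 0.153). Both effector kinases were higher in all WT iGB6 libraries than in any IgHMOG iGBGFP library, Chek2 with a lowest WT iGB6 library of 45.0 and a highest IgHMOG iGBGFP library of 44.8, and neither passed. Chek2 was called without WT iGB6 replicate 3 (1.07, adjusted p = 0.0458).

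Promoter sequences were at hand for 29 of the 37 members (RefSeq, build GRCm38.p6). Exo1, Rad54b and Fancd2 are not among them, nor are Rad50, Nbn, H2afx, Rbbp8 and Xrcc2. E2F factors, which switch on S phase genes, are known to recognise letters close to TTTSSCGC, where S is C or G. The looser motif TTTNNCGC was searched on both strands in the 250 bases before the transcription start. A match to it need not be an E2F site. TTTNNCGC was found in 7 of 29 members (24.1%), namely Bard1, Brca2, Brip1, Chek2, Fancg, Mdm2 and Topbp1, and in 4.94% of the 27025 genes with a promoter entry. The letters TTTGAA, known as the CHR element of mitotic genes, were in 2 of 29 members, Bard1 and Polq (6.90%, and 18.3% of all genes). The decamer known as the p53 consensus unit was in 6 of 29, Brip1, Cdkn1a, Fanca, Fancg, Mdm2 and Trp53 (20.7%, and 8.20% of all genes). Brip1, Chek2 and Topbp1 are the members with a TTTNNCGC match and the smallest p in the comparison, and their windows are shown 5′ to 3′ on the gene's strand, with the match in capitals. It stands as TTTTTCGC on the strand of Brip1 and reads in reverse complement in Chek2 and Topbp1. The Brip1 match does not have the form TTTSSCGC, while those of Chek2 (TTTCCCGC) and Topbp1 (TTTCGCGC) do. The windows are chr11:86201194-86201443 on the minus strand for Brip1, chr5:110839733-110839982 on the plus strand for Chek2 and chr9:103305077-103305326 on the plus strand for Topbp1.
Brip1: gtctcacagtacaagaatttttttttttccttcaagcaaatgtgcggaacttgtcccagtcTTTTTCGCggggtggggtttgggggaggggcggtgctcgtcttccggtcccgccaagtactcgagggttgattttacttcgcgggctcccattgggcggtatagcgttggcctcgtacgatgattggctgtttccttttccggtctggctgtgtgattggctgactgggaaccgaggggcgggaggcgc
Chek2: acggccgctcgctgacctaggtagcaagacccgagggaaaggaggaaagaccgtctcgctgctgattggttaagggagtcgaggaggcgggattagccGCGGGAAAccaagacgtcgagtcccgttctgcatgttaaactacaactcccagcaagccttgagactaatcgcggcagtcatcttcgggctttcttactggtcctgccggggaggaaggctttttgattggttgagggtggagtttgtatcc
Topbp1: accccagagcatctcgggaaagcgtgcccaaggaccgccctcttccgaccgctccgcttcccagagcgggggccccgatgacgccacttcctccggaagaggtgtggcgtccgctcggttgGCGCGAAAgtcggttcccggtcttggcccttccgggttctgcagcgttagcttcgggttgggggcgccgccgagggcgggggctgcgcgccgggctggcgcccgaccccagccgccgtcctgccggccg
The matches end 182, 145 and 122 bases before the start in Brip1, Chek2 and Topbp1. Tested members with the motif had a median log2 fold change of 0.70 (6 genes) and those without it 0.81 (21 genes), a difference that was not tested.

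Of the 14 recombination members, 13 were tested, 2 rose and 11 did not pass, where 2.75% of all tested genes were called higher. Their median log2 fold change was 1.05, with a range of 0.15 to 1.48. Exo1 encodes the nuclease that lengthens resected DNA ends and also serves mismatch repair. It had 74.7, 75.8 and 61.9 normalized counts in WT iGB6, against 29.7, 17.2 and 29.0 in IgHMOG iGBGFP. Every WT iGB6 library exceeded the highest IgHMOG iGBGFP library by a wide margin, and the spread within each group was small (70.8 ± 7.74 in WT iGB6 and 25.3 ± 6.98 in IgHMOG iGBGFP, SD, n = 3 each; 1.48, SE 0.30, adjusted p = 0.0244). Exo1 lost its call without WT iGB6 replicate 1 (adjusted p = 0.0809) and without IgHMOG iGBGFP replicates 1 (0.0744), 2 (0.14) or 3 (0.0768), while its fold change stayed between 1.25 and 1.66. The gene lies on chromosome 1 at 175880581 to 175913489 (GRCm38).

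Rad54b encodes a DNA translocase that acts in homologous recombination. It had 70.0, 37.9 and 33.7 normalized counts in WT iGB6, against 24.5, 9.49 and 18.0 in IgHMOG iGBGFP, so the female was the highest library of both groups and the groups did not overlap (1.41, SE 0.33, adjusted p = 0.0392). Without the same 4 libraries in turn it did not pass, while its fold change lay between 1.18 and 1.67, with adjusted p = 0.15 without WT iGB6 replicate 1 and 0.129, 0.188 and 0.0807 without IgHMOG iGBGFP replicates 1, 2 and 3. Fsbp, a gene on the same strand, shares 35.8% of the exon bases of Rad54b and itself averaged 0.829 normalized counts, and the sources used here do not state how the authors assigned shared reads. The related translocase Rad54l had 205, 191 and 102 in WT iGB6, against 92.1, 45.7 and 102 in IgHMOG iGBGFP, where WT iGB6 replicate 3 and IgHMOG iGBGFP replicate 3 were level (1.06, SE 0.33, adjusted p = 0.0817). Lrrc41 on the opposite strand, at a mean of 86.9 normalized counts, shares 15.4% of the exon bases of Rad54l.

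Brca1 and its tested partners all had higher fitted levels in WT iGB6, and none of them passed in limma with the filter on low counts. Brca1, which directs resected breaks to recombination, had 111, 71.8 and 36.0 normalized counts in WT iGB6, against 38.9, 26.7 and 29.0 in IgHMOG iGBGFP (1.06, SE 0.32, adjusted p = 0.0766). Replicates 1 and 2 of WT iGB6 stood well above the others, and replicate 3 lay inside the IgHMOG iGBGFP range. Its helicase partner Brip1 had 184, 133 and 76.5, against 69.6, 48.3 and 61.0, with no overlap (1.05, SE 0.27, adjusted p = 0.0509). Palb2, the bridge between BRCA1 and BRCA2, had 43.9, 29.2 and 20.2, against 13.3, 12.9 and 14.0, also with no overlap (1.09, SE 0.36, adjusted p = 0.0992). Brca2, a mediator of recombination, was low and overlapped (19.0, 13.4 and 9.00 in WT iGB6, against 4.09, 9.49 and 9.00 in IgHMOG iGBGFP; adjusted p = 0.353). Bard1, the obligate partner of BRCA1, was lower still, at 4.79 ± 3.76 in WT iGB6 and 6.17 ± 2.65 in IgHMOG iGBGFP (SD, n = 3 per group), and without the filter on low counts it had a fold change of -0.49 (SE 0.67). With that error a difference of the size fitted for Brca1 was not detectable in Bard1.

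Blm, the helicase that dissolves recombination intermediates, had 154, 115 and 81.0 normalized counts in WT iGB6, against 85.9, 22.4 and 52.0 in IgHMOG iGBGFP (1.26, SE 0.33, adjusted p = 0.0532). The lowest WT iGB6 library lay just under the highest IgHMOG iGBGFP library. Rad51ap1, an accessory factor of recombination, had 119, 85.3 and 66.4, against 73.6, 35.4 and 40.0, with a similar small overlap (0.88, SE 0.24, adjusted p = 0.0594). Rbbp8, which encodes the resection factor CtIP, did not overlap, at 225, 185 and 191 against 125, 116 and 152 (0.61, SE 0.20, adjusted p = 0.101). Rad51c, Xrcc2 and Xrcc3, whose products form complexes that assist recombination, were low in all libraries (7.0 to 33.2 normalized counts), overlapped between the groups and had adjusted p of 0.357 to 0.837.

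**Figure D2:**
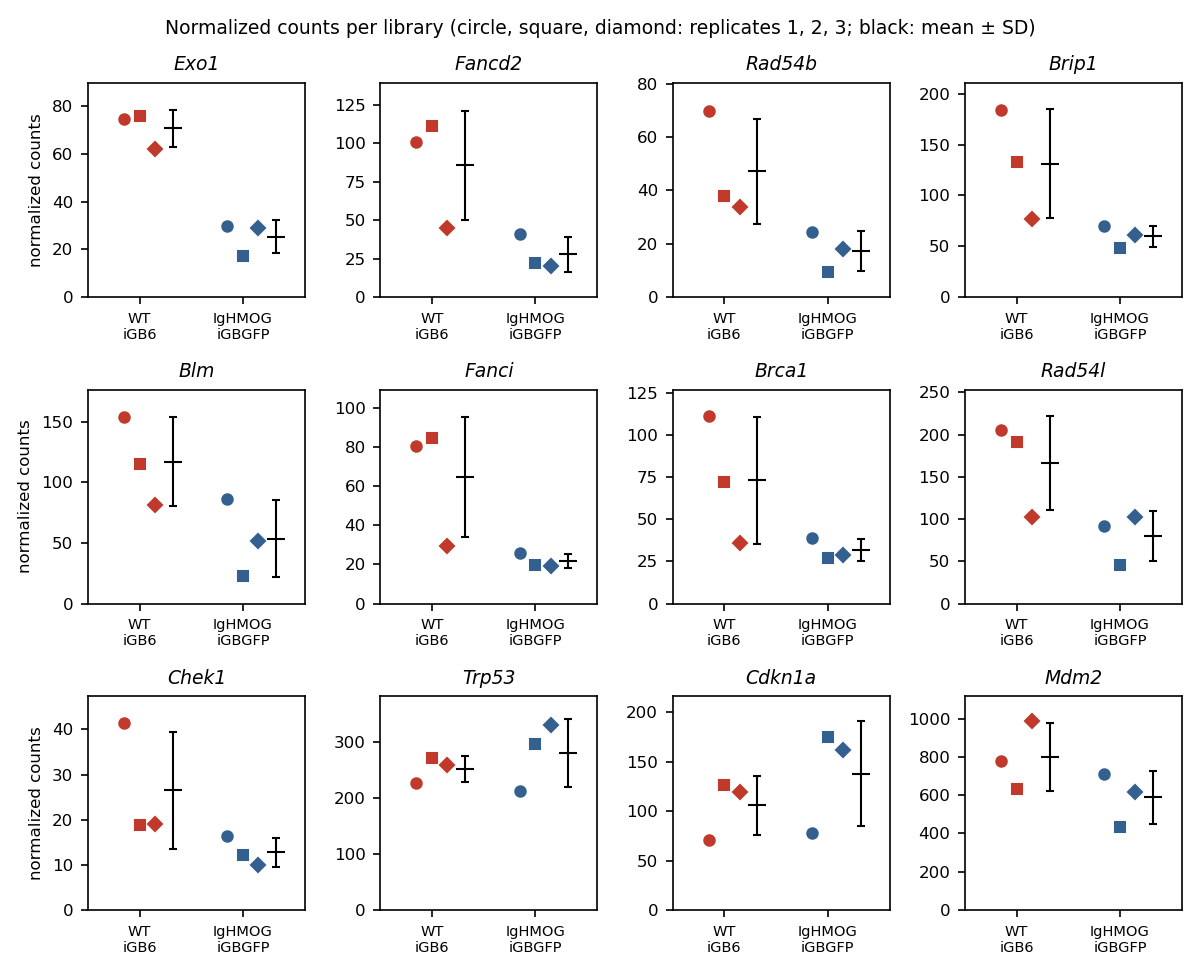
Normalized counts in each library for 12 members, with WT iGB6 left of IgHMOG iGBGFP, a marker shape per replicate, and the mean ± SD in black (n = 3 per group). Exo1 separates the groups most widely (lowest WT iGB6 61.9, highest IgHMOG iGBGFP 29.7), WT iGB6 replicate 3 lies close to the IgHMOG iGBGFP libraries for Fancd2, Fanci and Brca1, and Trp53 and Cdkn1a overlap between the groups.

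Of the 7 Fanconi members, 1 rose and 6 did not pass, with a median of 0.82. In 6 of the 7 all WT iGB6 libraries lay above all IgHMOG iGBGFP libraries. Of all tested genes, 2.75% were called higher and 12.2% were separated in that direction. Fancd2, whose monoubiquitylated protein marks crosslinked forks, had 101, 111 and 45.0 normalized counts in WT iGB6, against 40.9, 22.4 and 20.0 in IgHMOG iGBGFP (1.56, SE 0.35, adjusted p = 0.0339). Replicate 3 of WT iGB6 lay far below the other WT iGB6 libraries and only a little above the highest IgHMOG iGBGFP library. Fancd2 lost its call without WT iGB6 replicate 1 (adjusted p = 0.0873) and without IgHMOG iGBGFP replicate 1 (0.0805), 2 (0.183) or 3 (0.131), with fold changes of 1.47 to 1.70. Without WT iGB6 replicate 2 the call was kept at a fold change of 1.15 (adjusted p = 0.046). Fanci, which encodes the partner of FANCD2 in the clamp, had 80.6, 84.5 and 29.2, against 25.6, 19.8 and 19.0 (1.42, SE 0.39, adjusted p = 0.0573). Here too WT iGB6 replicates 1 and 2 stood far above the other libraries and replicate 3 lay just above them. Polg on the opposite strand shares 16.0% of its exon bases.

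Ube2t and Fancl carry out the ubiquitin transfer, and neither passed. Ube2t, the conjugating enzyme, had 91.3, 52.1 and 45.0 normalized counts in WT iGB6, against 41.9, 34.5 and 26.0 in IgHMOG iGBGFP (0.82, SE 0.27, adjusted p = 0.101). Fancl, the ligase that works with it, was the exception, at 42.7, 40.3 and 34.9 against 29.7, 43.1 and 50 (-0.03, SE 0.29, adjusted p = 0.961). Of the core complex, Fanca was at 403, 342 and 579 against 327, 195 and 255 (0.76, SE 0.25, adjusted p = 0.0951), Fancb had a fold change of 0.99 (SE 0.34, adjusted p = 0.108) and Fancg of 0.41 (SE 0.22, adjusted p = 0.271). None of these 3 had overlap between the groups, and for Fanca, unlike Fancd2 and Fanci, WT iGB6 replicate 3 was the highest library. Zfp276 and Vrk2, on opposite strands, share 10.5% of the exon bases of Fanca and 13.7% of those of Fancl.

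Neither tested member of mismatch repair passed, in limma, edgeR or DESeq2 (1 higher and 0 lower at an unadjusted p under 0.05). Msh6, a mismatch-recognition subunit, had 26.1, 27.6 and 24.7 normalized counts in WT iGB6, against 35.8, 14.7 and 18.0 in IgHMOG iGBGFP (0.29, SE 0.35, adjusted p = 0.66), so the female IgHMOG iGBGFP library was above every other library. Pms2, a subunit of the endonuclease that follows recognition, had 106, 69.5 and 38.2, against 39.9, 25.0 and 50 (0.81, SE 0.36, adjusted p = 0.197). Polq encodes polymerase theta, which joins ends by short homologies. It stayed below the filter, at 13.0, 15 and 11.2 against 7.16, 8.62 and 3.00, with no overlap between the groups (1.04, SE 0.57, without the filter).

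The 3 p53 members did not pass in limma, edgeR or DESeq2, and 0 had an unadjusted p under 0.05. Trp53 itself had 226, 271 and 258 normalized counts in WT iGB6, against 213, 297 and 331 in IgHMOG iGBGFP (-0.13, SE 0.18, adjusted p = 0.694). Cdkn1a, which encodes the cell cycle inhibitor p21, had 71.1, 126 and 119, against 77.7, 175 and 162 (-0.34, SE 0.21, adjusted p = 0.338). Within each sex Cdkn1a was lower in WT iGB6, but the females were low in both groups, so the groups overlapped. Mdm2, the ligase that degrades p53 and a p53 target in turn, had 780.2, 631 and 989, against 711, 435 and 619 (0.45, SE 0.23, adjusted p = 0.256). Per kilobase of exon, Mdm2 was the most abundant of the 37 members (157 normalized counts per kilobase in WT iGB6 and 116 in IgHMOG iGBGFP), followed by Trp53 (62.2 and 69.2) and Fanca (50.4 and 29.6). Exo1 (8.40 and 3.00), Rad54b (8.16 and 3.00) and Fancd2 (10.8 and 3.50) came at ranks 26, 28 and 21 of 37 by their mean level. Of 24 other p53 targets, 19 were tested, 0 rose and 1, Btg2, fell (0 higher and 6 lower at an unadjusted p under 0.05, where 12.3% of all tested genes were lower), with a median of -0.26. Called lower were 1 in edgeR, 2 in DESeq2, 3 with a replicate block, 5 without the filter and 0 without the sex term. Btg2, an antiproliferative gene that is also an immediate early gene, was at 3978 ± 1261 in WT iGB6 and 8220.1 ± 2354 in IgHMOG iGBGFP (SD, n = 3 per group; -1.05, SE 0.25, adjusted p = 0.0378).

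Other genes of the same pathways were set beside the members. Of 22 tested recombination genes outside the list, 2 rose and none fell, with a median of 0.38. Fignl1, an ATPase that acts in recombination, had 347, 219 and 177 normalized counts in WT iGB6, against 92.1, 91.4 and 83.0 in IgHMOG iGBGFP (1.41, SE 0.23, adjusted p = 0.0123). Every WT iGB6 library was above every IgHMOG iGBGFP library. Of 18 other damage signalling genes, 0 passed in limma or edgeR and 3 in DESeq2 (9 higher and 0 lower at an unadjusted p under 0.05), with a median of 0.47. Of 8 other Fanconi genes, 0 passed with any of the 3 tools (0 and 0), with a median of -0.03. Of 8 other mismatch repair genes, Lig1, the ligase of lagging-strand DNA, rose (1.21, SE 0.23, adjusted p = 0.021) and the median was 0.54.

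Of 10 end joining genes, 0 passed in limma, edgeR or DESeq2 (3 higher and 0 lower at an unadjusted p under 0.05), with a median of 0.21. Of 15 nucleotide excision repair genes, 0 passed with these tools (1 and 0), with a median of 0.09. Of 13 base excision repair genes, 1 rose, Neil3, a glycosylase of dividing cells (1.02, SE 0.23, adjusted p = 0.0339), with a median of -0.01. Whether these medians differ from that of the members was not tested. Without WT iGB6 replicate 1, or without IgHMOG iGBGFP replicate 1, 2 or 3, 0 genes passed in the lists of other recombination, mismatch repair, base excision repair and p53 target genes.

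**Figure D3:**
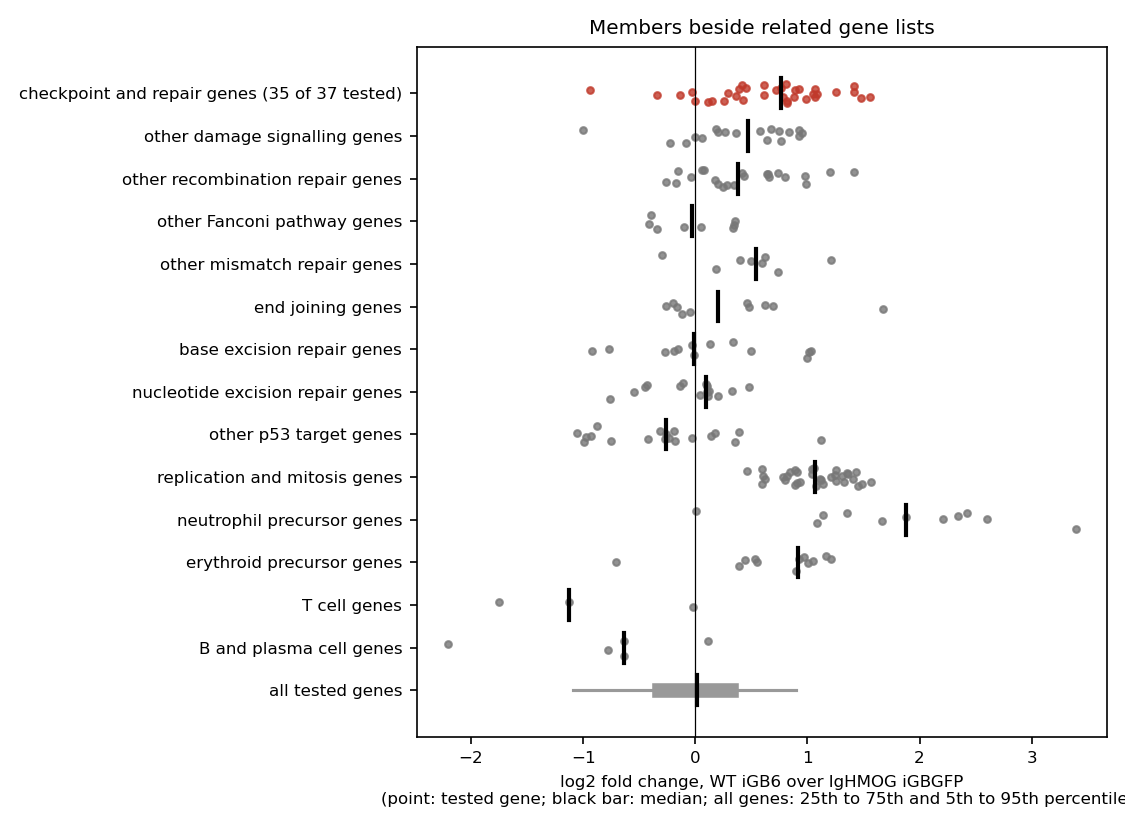
Log2 fold changes, WT iGB6 over IgHMOG iGBGFP, of each tested gene in the members and in the related lists, with black bars at the medians. The members (median 0.76) lie between the replication and mitosis genes (1.07) and the excision repair lists (-0.01 and 0.09), and all tested genes centre on 0.02.

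Of 34 tested genes of DNA replication and mitosis, 22 rose and 0 fell, with a median log2 fold change of 1.07. That count was 0 without IgHMOG iGBGFP replicate 2, 2 without IgHMOG iGBGFP replicate 3, 6 with the males alone or without replicate 1 of either group, and 1 without the sex term. Rrm2, a ribonucleotide reductase subunit, was at 1874 ± 569 normalized counts in WT iGB6 and 656 ± 145 in IgHMOG iGBGFP (SD, n = 3 each; 1.49, SE 0.18, adjusted p = 0.00471), and the S phase cyclin Ccne2 at 300.2 ± 33.7 in WT iGB6 and 100.5 ± 8.34 in IgHMOG iGBGFP (1.57, SE 0.19, adjusted p = 0.00471). Their summed level was 19888, 15522 and 10288 normalized counts in WT iGB6 replicates 1, 2 and 3, against 8554, 5877 and 6187 in IgHMOG iGBGFP. The recombination members summed to 1275, 1018 and 729, against 627, 386 and 552. In both sums the females led their group and WT iGB6 replicate 3 was the lowest of its group and nearest to IgHMOG iGBGFP. All 37 members summed to 4111, 3481 and 3509, against 2709.7, 2185 and 2646, and this total was 20.7, 22.4 and 34.1% of the replication and mitosis sum in WT iGB6 and 31.7, 37.2 and 42.8% in IgHMOG iGBGFP. WT iGB6 replicate 3 was the lowest WT iGB6 library for 22 of 35 tested members and WT iGB6 replicate 1 the highest for 21.

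Of 11 tested markers of neutrophil precursors, a dividing population, 10 rose. That count was 0 without IgHMOG iGBGFP replicate 2, 2 without IgHMOG iGBGFP replicate 3, 5 without IgHMOG iGBGFP replicate 1, 4 without WT iGB6 replicate 1 or with the males alone, and 0 without the sex term. Fcnb, a ficolin of maturing neutrophils, was at 6866 ± 1958 in WT iGB6 and 1929 ± 823 in IgHMOG iGBGFP (SD, n = 3 each; 1.88, SE 0.19, adjusted p = 0.00157). The list summed to 40103, 28301 and 25407 normalized counts in WT iGB6, against 16691, 9615 and 7247 in IgHMOG iGBGFP. Of 12 tested erythroid precursor genes 0 passed in limma, edgeR or DESeq2 (6 higher and 0 lower at an unadjusted p under 0.05), 5 were called without the filter and 1 with the males alone or without replicate 1 of either group, and their sums overlapped, at 2757 to 4694 against 937 to 4449.7. The T cell list summed to 92.4 to 137 in WT iGB6 and 171 to 217 in IgHMOG iGBGFP, of which Cd3e was at 0 in all WT iGB6 libraries. In that list Lat, an adaptor of the T cell receptor, fell (-1.75, SE 0.30, adjusted p = 0.0167), a call lost without WT iGB6 replicate 1 or any of the IgHMOG iGBGFP libraries. The B and plasma cell list summed to 1934 to 2383 against 2603 to 4437, and Ighm, the heavy chain of IgM, made up most of it (2064 ± 206 in WT iGB6 and 3255 ± 749 in IgHMOG iGBGFP, SD, n = 3 each; -0.64, SE 0.19, adjusted p = 0.074). In both lymphocyte lists every WT iGB6 sum lay below every IgHMOG iGBGFP sum. Of the 3 tested T cell genes, Lat and Cd4 were lower in all WT iGB6 libraries than in any IgHMOG iGBGFP library, as were 11.4% of tested genes. Cd4 did not pass in limma (-1.13, SE 0.43, adjusted p = 0.146). Lat was at up to 18.0 in WT iGB6 and 47.0 to 65.5 in IgHMOG iGBGFP. Cd3d, the most abundant gene of that list, overlapped, at 63.1 to 85.5 against 47.0 to 132 (-0.02, SE 0.31, adjusted p = 0.981). Without Lat the T cell sums overlap. Lat made up 18.0 of the 137 in WT iGB6 replicate 3 and 65.5 of the 171 in IgHMOG iGBGFP replicate 2. The B and plasma cell sums likewise overlap without Ighm. It made up 2279 of the 2383 in WT iGB6 replicate 2 and 2516 of the 2603 in IgHMOG iGBGFP replicate 1. The part of precursor and cycling cells in the members' difference was not tested.

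**Figure D4:**
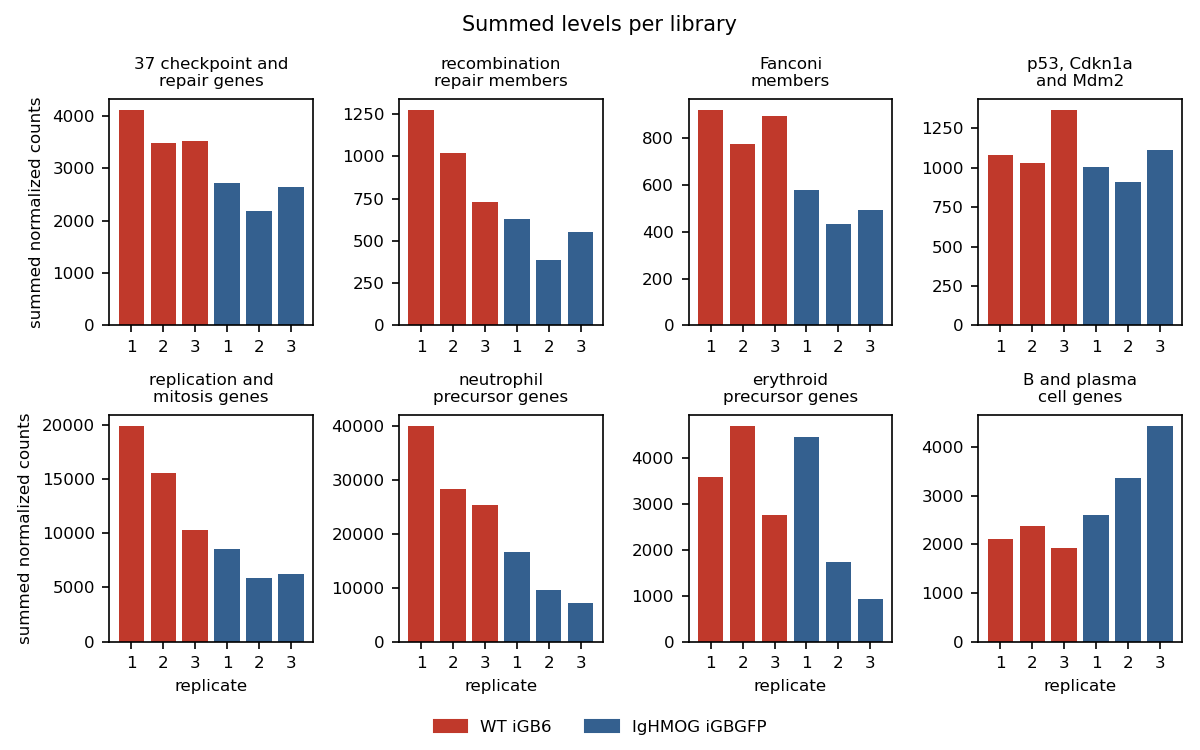
Summed normalized counts per library (bars, replicates 1 to 3, WT iGB6 in red and IgHMOG iGBGFP in blue) for the members, their recombination, Fanconi and p53 groups, and the lists of cycling and other cells. Recombination, replication and neutrophil precursor sums share the order of the WT iGB6 libraries, which the sum of all members does not. In IgHMOG iGBGFP the lowest library is replicate 2 for recombination and replication and replicate 3 for neutrophil precursors. The B and plasma cell sum is higher in IgHMOG iGBGFP.

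More members passed when read counts were modelled. On whole reads recovered from the deposited values, edgeR called 5 members higher, adding Brip1 and Fanci to the 3 of limma, where 2.56% of genes were called higher, and DESeq2 called 8, adding also Brca1, Blm and Rad54l, where 4.25% were. The authors' deposited table gave 8 members an adjusted p under 0.05 and were higher (3.89% of its genes): Fancd2 (log2 fold change 1.35, adjusted p = 0.00311), Exo1 (1.23, 0.00574), Fanci (1.24, 0.0131), Brip1 (0.97, 0.0171), Blm (1.01, 0.0211), Rad54b (1.11, 0.0319), Rad54l (0.91, 0.0389) and Brca1 (0.96, 0.0498). Without the filter on low counts limma called 9, those 8 and Fanca (2.03% of genes). No member was called lower in any of these fits.

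**Figure D5:**
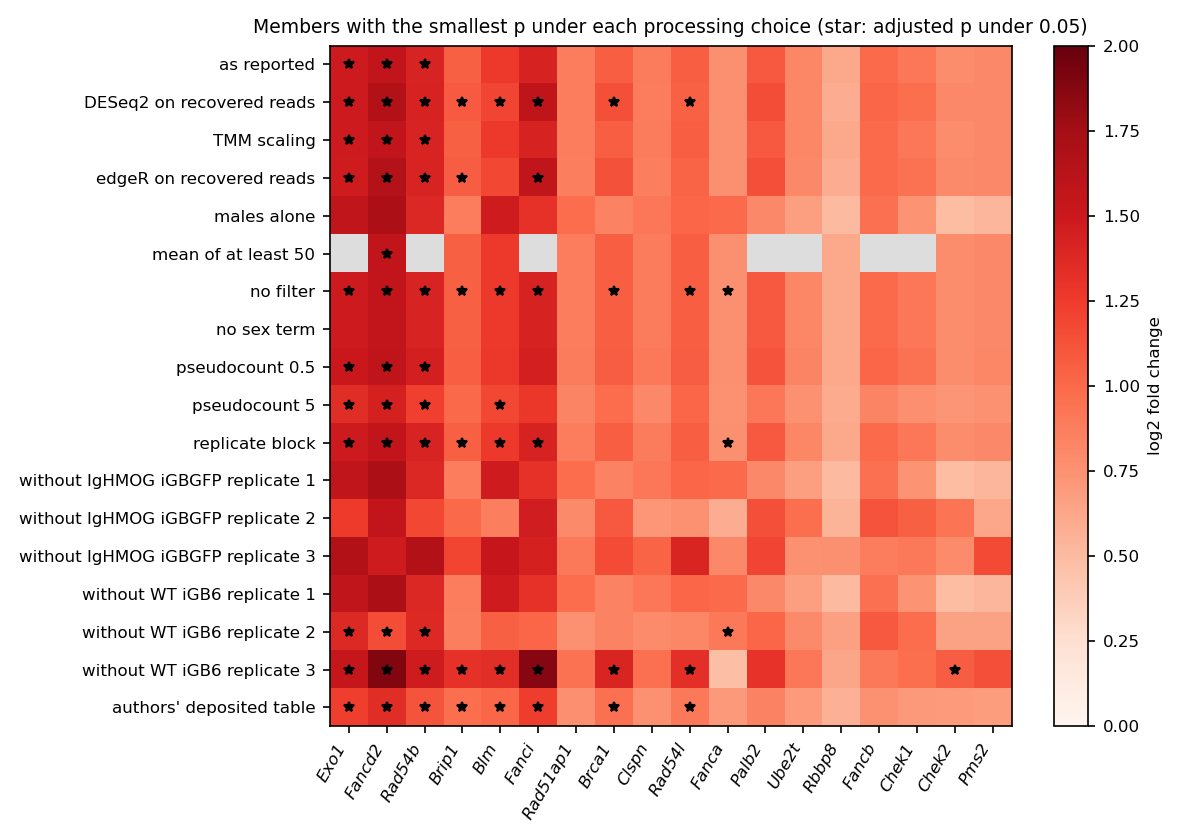
Log2 fold change (colour) of the 18 members with an unadjusted p under 0.05 under each processing choice, with a star where the adjusted p was under 0.05 and grey where the gene was not tested. Every value is above 0; Exo1, Fancd2 and Rad54b carry the most stars, and no member has one in the males alone or without the sex term.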

How the data were processed

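Bulk RNA-seq of CD11b+ spleen cells from 6 mice was analysed, 3 per group, grouped by the sample labels. Per the labels' protocols, low-input cDNA was amplified before library preparation, with no molecular identifiers described, so counting error is a lower limit. Tools listed by the submitters' processing notes are STAR 2.7.10b, featureCounts 2.0.3, cutadapt 4.4, FastQC 0.74 and DESeq2 2.11.40.7, and the builds listed are GRCm38 and mm10. The sources used here state neither the strand setting nor the handling of shared reads, so reads of overlapping genes cannot be told apart. The deposited signal values are read counts that the authors divided by a size factor per library. Dividing by each column's smallest value gave whole reads for 100.0% of values within 0.001, with 3 reads behind a 0 being 2.37 to 3.56 normalized counts. The other deposited table holds the authors' log2 fold change, its standard error, a Wald score and p-values, whose column order was read from the values.

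Symbols and positions came from GENCODE M21 by Ensembl identifier. Testing used limma 3.58.1 (R 4.3.3, moderated with trend, two-sided) on log2(normalized count + 1) of the 9923 genes with a mean of 10 or more, modelled on group plus sex, with Benjamini-Hochberg adjustment over all of them at 0.05. Fold changes on that scale understate the change of low genes. Alternatives were edgeR 4.0.16 and DESeq2 1.42.0 on recovered reads, other pseudocounts, filters and scaling, no sex term, a replicate block, males alone and each library left out. The limma step was tested on simulated data. Members and gene lists were chosen with earlier results of these data known. All 37 members are described; of each other list, up to 2 genes with the smallest p and the most abundant gene could be named, and Cd3e and Itgam were chosen for what they mark, as was the overlapping gene of a member where one bears on its reads. Motifs were searched in RefSeq promoter windows of 250 bases. The sex term takes up anything that replicates numbered 1 share.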

Additional observations from a re-analysis of the deposited data

Results flagged for a closer look

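For 4 members the female pair and the male pairs lay in opposite directions, with both male WT iGB6 libraries on the same side of both male IgHMOG iGBGFP libraries. On the log2 scale, the difference between WT iGB6 and IgHMOG iGBGFP in the females minus that in the males was -1.29 for Xrcc2, -1.10 for Msh6, 0.81 for Fancl and 0.34 for Trp53. A limma model with the interaction of sex and group called 0 of these and 0 of all 9923 genes (148 genes and 0 members at an unadjusted p under 0.05). Each sex difference rests on 1 female per group.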

How the results depend on the processing

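All genes called numbered 607 as reported, and 3 members were called higher. With DESeq2 on recovered reads these were 951 and 8, without the filter 1079 and 9, with the replicate block 1001 and 7, with males alone 133 and 0, and without the sex term 10 and 0. Members called higher were 5 with edgeR, 1 with a mean of at least 50, where 18 members were tested, and 8 in the authors' deposited table. Leaving out a library gave 4 (IgHMOG iGBGFP replicate 2) to 1090 (WT iGB6 replicate 2) called genes, and 0 to 9 members. No member was called lower under any of the 17 alternatives, and the median log2 fold change of tested members moved by less than the spread between libraries in each. Fitted directions reversed, without a call, for Atm (0.06 without IgHMOG iGBGFP replicate 3, 0.07 without WT iGB6 replicate 2, range -0.10 to 0.07 over left-out libraries), Fancl (0.11 and, without WT iGB6 replicate 3, 0.10; range -0.30 to 0.11) and Xrcc3 (-0.14 without WT iGB6 replicate 2, range to 0.40). Same-numbered libraries deviated together for replicates 1 and 2 (r = 0.482 and 0.35) but not for 3 (0.0407). WT iGB6 replicate 3 had r = 0.085 with IgHMOG iGBGFP replicate 1, and WT iGB6 replicate 2 had r = 0.287 with IgHMOG iGBGFP replicate 3. Sex was not removed before these correlations, and replicate 1 is the female of each group. With 3 libraries per group these values cannot decide whether same-numbered mice were pairs, and the labels give such mice close numbers. The model as reported did not use pairs, and the replicate block, which does, called 7 members. Of the 576 member values under alternatives, 523 kept direction and side of the threshold; the cause of the changed calls was not tested. At this depth Bard1 and Polq stayed under the filter; whether depth limits the other members was not tested.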
